A study of Mus musculus with 6 samples.

Results

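Decidualization is the change by which fibroblast-like stromal cells of the uterine lining become large secretory decidual cells around an implanting embryo. A set of 10 genes named by symbol was followed, Alpl, Bmp2, Wnt4, Wnt6, Cebpb, Prl8a2, Bmp8a, Ccnd3, Tdo2 and Foxo1, in a table of 44788 gene rows. All 10 symbols had a row, 9 had at least 1 read, and 6 passed the filter on low counts, as did 16581 genes in all. The genes came from 1 comparison in ICR mice, an outbred strain. Both groups had received tamoxifen by mouth as newborns, 2.7 µmol/kg from day 2 to day 5 of life, a treatment that induces adenomyosis, the growth of endometrial glands and stroma into the uterine muscle. After 75 days, an arm of 8 mice was injected intraperitoneally with the GnRH agonist Decapetyl (the labels' spelling), daily from day 3 to day 9 of estrus at 1.5 µg per 100 g body weight. The other arm of 8 was given solvent. Mating followed after another 4 weeks, and on day 4 of pregnancy the endometrium of uteri with diagnosed adenomyosis was scraped off. The 6 libraries were 3 with agonist and 3 without it. No group without tamoxifen was analysed here, and the labels do not say whether a library came from 1 mouse, so the p-values reflect library-to-library spread, which may be technical.

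In the mouse, estrogen and progesterone prepare the stroma, and the blastocyst then sets off decidualization. The ligand Bmp2 acts in stromal cells upstream of Wnt ligands, among them Wnt4 and Wnt6, and the transcription factors Cebpb and Foxo1 and the cyclin Ccnd3 act in the cells that divide and differentiate. Alpl (tissue-nonspecific alkaline phosphatase) is a classic histochemical marker of the reaction, and Prl8a2 (decidual prolactin-related protein), Bmp8a and Tdo2 (tryptophan dioxygenase) are markers of the decidua. Day 4 lies close to attachment of the embryo, before a full decidua is present.

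Library totals ranged from 11720958 to 14104266 counts, and 3 counts, the upper limit allowed by a count of 0, corresponded to 0.204 to 0.276 CPM (the usual depth-scaled count unit, here with TMM library sizes). No-agonist library 2 and agonist library 1 stood apart in 18S ribosomal RNA (Rn18s-rs5), at 3.31% and 1.94% of counts, against 0.254 to 0.369% in the other 4. Of the tissue's own markers, all 13 stromal and all 14 epithelial genes listed were detected, led by Col3a1 and Krt8. Smooth muscle markers were present as well, with a summed level of 3572 to 22946 CPM. Markers of trophoblast and embryo were at 0 reads for 7 of 10 listed genes, Cdx2, Pou5f1 and Nanog among them. The others had few reads, and the list summed to 0.830, 1.83 and 2.76 CPM without agonist and 1.28, 5.09 and 5.00 CPM with it. The 1 gene tested was higher with agonist (log2 fold change 1.72), with an unadjusted p not under 0.05.

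Alpl was far lower in endometrium of agonist-treated mice. It measured 434, 496 and 386 CPM in the 3 libraries without agonist and 91.9, 83.3 and 31.2 CPM in the 3 with it. All 3 agonist libraries lay well below all 3 others, and the lowest library without agonist was above 4 times the highest with it. The group means were 68.8 ± 32.8 and 438 ± 55.2 CPM (mean ± SD, n = 3), a 6.37-fold lower level. In edgeR's quasi-likelihood test the log2 fold change was -2.67 ± 0.41 SE (95% interval -3.62 to -1.72, Benjamini-Hochberg adjusted p = 0.209 over 16581 genes), so Alpl ranked 15th by p and did not pass the threshold of 0.05. No gene did: that test called 0 genes higher and 0 lower (0% of those tested in each direction), while an unadjusted p under 0.05 was reached by 691 higher (4.17%) and 844 lower genes (5.09%), and by 0 and 1 of the 6 tested genes of the set. DESeq2 called 141 genes higher and 253 lower (1.56% of the 16216 it adjusted), Alpl among the lower (adjusted p = 7.11e-08), and edgeR's likelihood ratio test called 104 and 164. The groups separated downward for 1 of the 6, Alpl, against 7.61% of all genes tested, and upward for 0 of the 6, against 6.94%. These shares are a description only, because the set was chosen with earlier results of these data known. An exact permutation test of the 6 levels gave p = 0.1 (two-sided), the smallest that 3 against 3 can give.

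Alpl lies on chromosome 4 (137741733 to 137796384, minus strand, GRCm38, GENCODE M21) and has 2 start sites in RefSeq (GRCm38.p6). The 250 bases before each start are shown with those of Bmp8a, the other gene whose groups did not overlap. Capitals mark matches to 6 motifs searched on both strands, and no match overlaps another.
Alpl, upstream start (chr4:137796385-137796634, minus strand): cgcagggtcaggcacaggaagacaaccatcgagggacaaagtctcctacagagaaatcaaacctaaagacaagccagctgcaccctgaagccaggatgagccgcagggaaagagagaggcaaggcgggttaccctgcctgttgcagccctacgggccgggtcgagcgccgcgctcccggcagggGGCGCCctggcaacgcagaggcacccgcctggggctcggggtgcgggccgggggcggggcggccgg
Alpl, downstream start (chr4:137766476-137766725, minus strand): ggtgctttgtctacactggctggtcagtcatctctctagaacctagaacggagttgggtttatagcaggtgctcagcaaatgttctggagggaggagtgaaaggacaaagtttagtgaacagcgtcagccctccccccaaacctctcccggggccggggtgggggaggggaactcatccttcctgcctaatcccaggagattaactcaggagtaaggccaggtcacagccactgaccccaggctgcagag
Bmp8a (chr4:123343253-123343502, minus strand): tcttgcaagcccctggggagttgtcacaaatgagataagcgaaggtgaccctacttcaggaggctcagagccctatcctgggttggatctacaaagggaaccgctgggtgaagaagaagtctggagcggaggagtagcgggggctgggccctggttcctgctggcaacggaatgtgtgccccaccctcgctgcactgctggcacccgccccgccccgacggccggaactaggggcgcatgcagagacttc
The window of the upstream Alpl start held 20 CpG dinucleotides at 68.4% G and C, and that of the downstream start 4 at 56.0%, against a mean of 9.86 over 32851 promoter windows of that length. The counts are summed per gene, so they do not say which start was used. The 1 match was the BMP-SMAD motif GGCGCC before the upstream Alpl start, 66 bases upstream of it, a motif found in 9.59% of all windows. No match was found in these 3 windows to the C/EBP motif TTGCNNAA (9.56% of windows), the FOXO motif GTAAACA (3.17%), the TCF/LEF motif CTTTGAA (4.46%), the progesterone response element core ACANNNTGT (5.84%) or the estrogen response element (0.0639%). Of the 10 genes, 8 had a promoter in the table, and among the others the Wnt4 window held GGCGCC at 2 positions, that of Tdo2 the core ACANNNTGT and 1 of those of Ccnd3 the FOXO motif.

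The other markers of a formed decidua were absent or nearly so. Prl8a2 (chromosome 13, 27345673 to 27354216) had 0 reads in each of the 6 libraries, which allows up to 0.204 to 0.276 CPM. Tdo2 (chromosome 3, 81957090 to 81976202), which breaks down tryptophan, had 1 read in agonist library 2, 1 in agonist library 3 and 0 in the other 4. Neither could be compared between groups. In the prolactin family, 21 of 24 listed genes had no read, including the decidual Prl3c1, and the receptor Prlr, at 1.30 ± 1.18 CPM with agonist against 2.35 ± 0.738 without, was the 1 gene tested. The decidual marker Igfbp1 had 2 reads in all. These libraries thus held Alpl at 31.2 to 496 CPM with next to no reads of Prl8a2, Prl3c1, Tdo2 or Igfbp1. Ido1, which catalyses the same step as Tdo2, had 1 to 6 reads per library, and Ido2 had 0. Among 17 listed genes of tryptophan use and the kynurenine pathway 9 were tested, 5 higher and 4 lower, and 0 had an unadjusted p under 0.05.

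Alkaline phosphatases other than Alpl were not seen: Alpi, Akp3 and Alppl2 had 0 reads in every library. No stretch of 50 bases of the longest Alpl transcript occurs in that of Alppl2. Alpl removes phosphate from pyrophosphate, and genes that make or move pyrophosphate and phosphate were listed with it. Of 13 tested in that list 6 were higher and 7 lower. An unadjusted p under 0.05 was reached by 1 higher and 3 lower genes, Alpl included (median log2 fold change -0.21, against 0.018 for all genes tested). Over all genes tested that p was reached by 4.17% higher and 5.09% lower. Ank, a transporter that exports pyrophosphate, measured 383, 284 and 230.2 CPM without agonist and 137, 83.3 and 92.6 CPM with it, again with no overlap (log2 fold change -1.52 ± 0.29, edgeR adjusted p = 0.252). The sodium-phosphate cotransporter Slc34a2 measured 86.5, 43.4 and 126 CPM without agonist and 48.6, 29.2 and 21.2 CPM with it, where agonist library 1 overlapped the other group. Enpp1, which makes pyrophosphate, lay on the other side, at 16.3, 14.8 and 8.54 CPM without agonist and 15.0, 30.02 and 32.9 CPM with it. None of these passed the adjusted threshold.

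**Figure D1:**
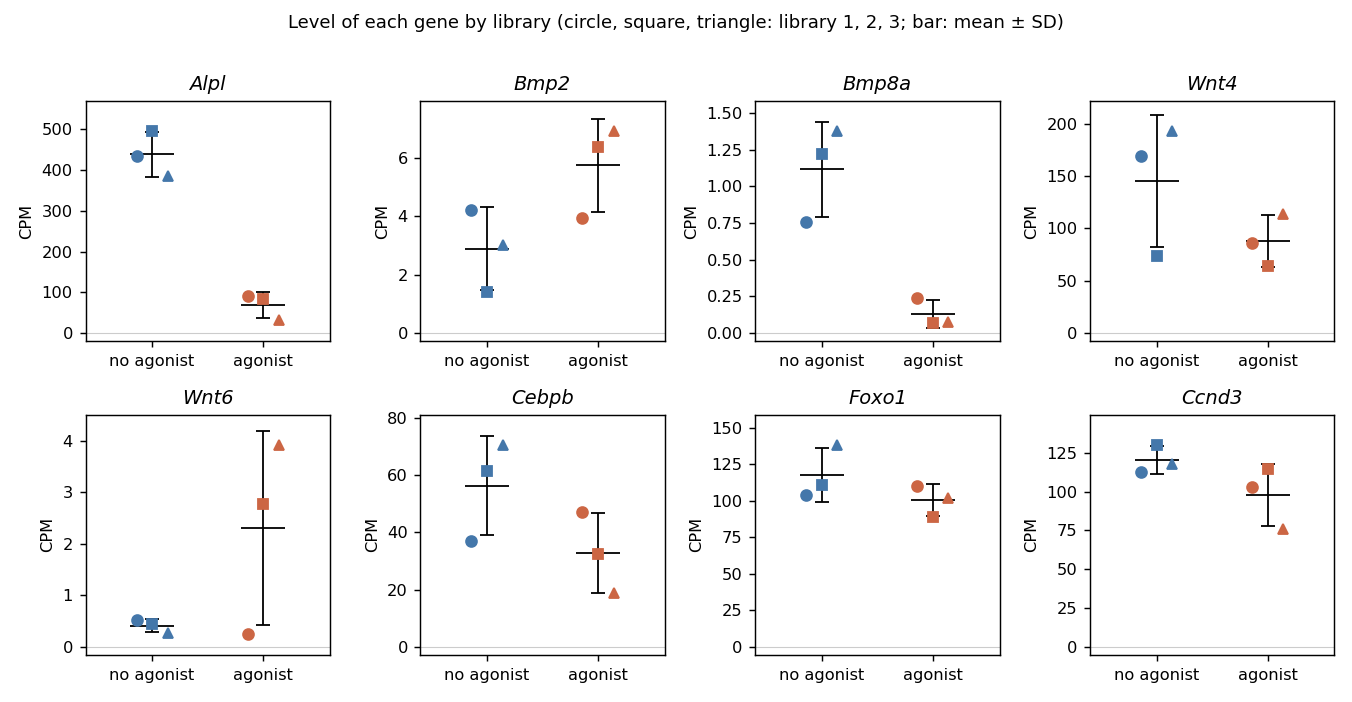
CPM in each library (y axis, linear, one scale per gene) for the 8 genes with more than 2 reads, by group (x axis), with bars at the mean ± SD of 3 libraries. Alpl and Bmp8a have no overlap between groups, and Wnt6 is high in 2 of 3 agonist libraries.

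Marker genes of several cell types differed between these libraries, and Alpl was set against 8 such lists. In bulk tissue fewer cells of a type and less RNA per cell cannot be told apart. Epithelial markers, which include Krt8, Krt19 and Krt7, summed to 10289, 15898 and 12672 CPM without agonist and to 8969, 7569 and 6410 CPM with it. The groups did not overlap, and 13 of 14 listed genes were lower, 7 of them at an unadjusted p under 0.05 (4 with library totals in place of TMM factors, where 11 of 14 were lower). Over all genes tested 5.09% were lower at that p, or 3.14% with library totals. Divided by that sum in the same library, Alpl was still lower with agonist, with log2 ratios of -6.61, -6.51 and -7.68 against -4.57, -5.00 and -5.04, a mean difference of -2.06 (exact two-sided permutation p = 0.1, 0.16 adjusted over 8 lists). The epithelial sum thus differed less than Alpl did. Stromal markers summed to 7434, 4598 and 5401 CPM without agonist and 5088, 5954 and 4713 CPM with it, which overlap, and 8 of 13 were higher and 5 lower with 0 at an unadjusted p under 0.05. Relative to them Alpl differed by -2.69 (exact permutation p = 0.1), about its difference in CPM. Endothelial markers were higher in 9 of 9, 3 of them at an unadjusted p under 0.05, as were 4.17% of all genes tested. With library totals 5 reached that p (7.19% of all genes tested). Without the libraries with a high 18S share 1 did (4.27%). The ratio of Alpl to endothelial markers differed by -3.40 (exact permutation p = 0.1). Smooth muscle markers were lower in 10 of 10 with 0 at an unadjusted p under 0.05, and the ratio of Alpl to them differed by -1.73 with overlapping groups (exact permutation p = 0.2). Without the pair of libraries with a high 18S share all 10 had an unadjusted p under 0.05, as did 7.05% of all genes tested in the lower direction, and their median log2 fold change went from -0.92 to -2.10.

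The leukocyte list gave the smallest of the 8 differences. Its sum was 507, 275 and 572 CPM without agonist and 174, 98.95 and 86.5 CPM with it, which do not overlap. Without agonist most of it came from Itgam, a myeloid integrin, at 342 ± 116 CPM, against 45.8 ± 44.9 CPM with agonist. Of the 9 tested genes of the list 6 were higher and 3 lower. Cd68 was also lower (19.6 ± 6.23 with agonist against 60.7 ± 23.2), while the pan-leukocyte gene Ptprc lay at 11.7 ± 1.17 against 9.14 ± 3.86 CPM. The ratio of Alpl to that sum differed by -0.89 with overlapping groups (exact permutation p = 0.3), and by -2.93 (exact permutation p = 0.1) when the mean of log2 CPM over the list, which gives each gene equal weight, replaced the sum. Relative to uterine gland markers Alpl differed by -2.51 (exact permutation p = 0.1), or by -4.04 with the mean of log2 CPM, and relative to neutrophil markers by -3.59 (exact permutation p = 0.1), without overlap in either. Without agonist most of the gland sum came from 1 gene, Prom1. Of the 4 tested gland genes 3 were higher and 1 lower. An unadjusted p under 0.05 was reached by 2 of the higher, against 4.17% of all genes tested. The neutrophil list was low, with 4 of 9 genes tested and a summed level of 3.92 to 19.4 CPM. For mesothelium and fat the difference of -3.09 came with overlapping groups (exact permutation p = 0.4) and ranged from -5.70 without agonist library 2 to -1.23 without no-agonist library 2. Which cells held the Alpl RNA was not tested.

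**Figure D2:**
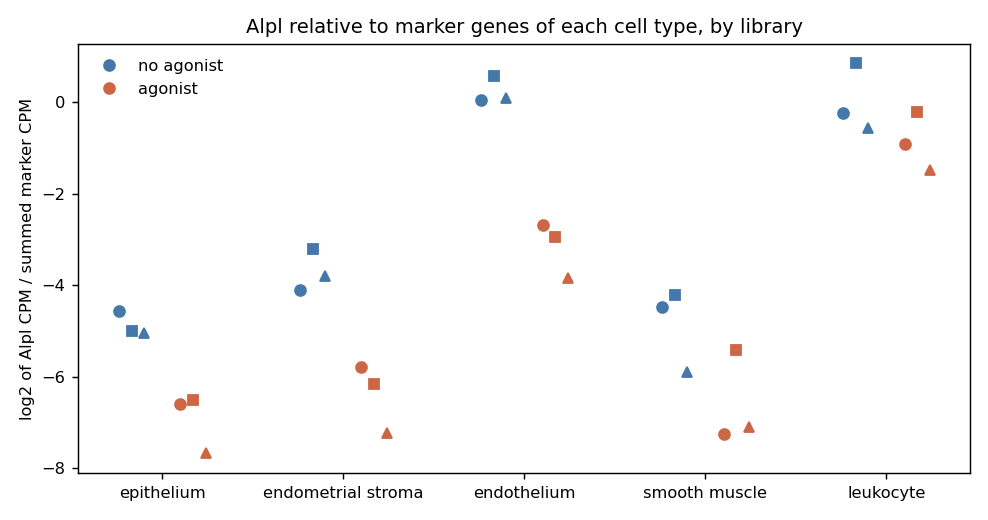
Log2 of Alpl CPM over the summed CPM of marker genes (y axis) in each library, for 5 cell types (x axis), with symbols for library 1, 2 and 3 of each group. The agonist libraries lie below all others for epithelium, endometrial stroma and endothelium and overlap them for smooth muscle and leukocytes.

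The BMP ligands of the set lay on opposite sides, and neither passed the test. Bmp2 (chromosome 2, 133552159 to 133562885), which stromal cells need to decidualize, measured 4.23, 1.39 and 3.03 CPM without agonist and 3.93, 6.38 and 6.92 CPM with it. Agonist libraries 2 and 3 lay above all others, and agonist library 1 lay within the other group. The log2 fold change was 0.99 ± 0.49 (95% interval -0.16 to 2.14, edgeR adjusted p = 0.597). Bmp8a (chromosome 4, 123312645 to 123343252, minus strand) was near the detection limit, with 10, 14 and 15 reads without agonist and 3, 1 and 1 reads with it. These 0.755, 1.22 and 1.38 CPM lay above the 0.241, 0.0679 and 0.0769 CPM of the agonist libraries without overlap. Over the summed libraries, 39 reads against 5 gave an 8.80-fold lower level with agonist (95% exact interval 3.47 to 28.6, counting error alone). It did not pass the filter on low counts. Fitted without that filter over 28089 genes, its log2 fold change was -3.05 ± 0.81 (edgeR adjusted p = 0.208).

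The neighbouring paralog Bmp8b lies 180545 bases from Bmp8a on the same chromosome. Of the 50-base stretches in the longest Bmp8a transcript, 8.91% occur in Bmp8b too, so some reads of the pair cannot be assigned to 1 of them. Bmp8b had 5, 7 and 2 reads without agonist and 14, 5 and 11 with it, so its counts did not show the pattern of Bmp8a. In the BMP list of ligands, receptors, effectors and inhibitors, 15 of 24 tested genes were higher and 9 lower (median log2 fold change 0.21). Of the higher, 4 had an unadjusted p under 0.05, as did 4.17% of all genes tested in that direction. Without the libraries with a high 18S share the list was even, with 12 higher, 12 lower and a median of -0.0010, and it was 13 and 12 without agonist library 3. The pseudoreceptor Bambi measured 9.89, 17.2 and 11.2 CPM without agonist and 20.9, 30.3 and 28.2 CPM with it, without overlap (log2 fold change 1.05 ± 0.29, edgeR adjusted p = 0.337). Id2, a target of BMP signalling, measured 81.1, 47.5 and 61.7 CPM without agonist and 77.1, 189 and 176 CPM with it. As for Bmp2, agonist library 1 lay within the other group. The type I receptor Bmpr1b and the signal transducer Smad5 had separated groups with means of 4.69 against 1.39 and of 175 against 116 CPM, with and without agonist. The main type I and II receptors Bmpr1a and Bmpr2 had log2 fold changes of -0.27 ± 0.23 and 0.022 ± 0.23.

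Both Wnt ligands of the set were measured, at very different levels. Wnt4 (chromosome 4, 137277489 to 137299726) lies 442006 bases from Alpl. It measured 169, 73.5 and 193 CPM without agonist and 86.2, 63.7 and 114 CPM with it. No-agonist library 2 was as low as the agonist group, and the log2 fold change was -0.72 ± 0.38 (95% interval -1.61 to 0.16, edgeR adjusted p = 0.623). Wnt6 (chromosome 1, 74771892 to 74785322) had 7, 5 and 3 reads without agonist and 3, 41 and 51 reads with it, or 0.528, 0.435 and 0.276 against 0.241, 2.78 and 3.92 CPM. Agonist libraries 2 and 3 stood above all others, and agonist library 1 was the lowest of the 6. Wnt6 did not pass the filter on low counts. Fitted without it, the log2 fold change was 2.44 ± 0.85 (edgeR adjusted p = 0.404). Per kilobase of exon, Wnt4 had 34.6 ± 15.1 CPM without agonist and Wnt6 0.188 ± 0.0583, so Wnt4 was by far the more abundant of the pair in that group.

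Of 25 tested genes of the Wnt list 17 were higher and 8 lower, and 4 of the higher had an unadjusted p under 0.05 (median log2 fold change 0.27). Leaving out 1 library moved that median between 0.15, without agonist library 3, and 0.66, without no-agonist library 1. In the latter setting 9 of 26 genes were higher at an unadjusted p under 0.05, against 4.46% of all genes tested (4.17% with all libraries). With all libraries the 4 were Sp5, Rnf43 and Lgr5, targets of canonical Wnt signalling, and the ligand Wnt11. Sp5, a transcription factor, measured 0.755, 1.13 and 0.551 CPM without agonist and 1.85, 5.91 and 8.70 CPM with it (log2 fold change 2.74 ± 0.65, edgeR adjusted p = 0.302). Lgr5, a receptor for R-spondins, measured 3.25, 0.261 and 0.367 CPM without agonist and 4.41, 10.5 and 13.2 CPM with it. The groups separated for both, and agonist library 1 was the lowest of its group for each. Rnf43, which removes Wnt receptors from the cell surface, was at 76.5 ± 22.6 against 41.7 ± 9.36 CPM. The target Axin2 overlapped between groups, at 59.6, 31.3 and 20.7 CPM without agonist and 37.2, 45.4 and 93.6 CPM with it. The groups separated upward for 5 tested genes of the Wnt list and 4 of the BMP list, and downward for 0 tested genes of either. Over all genes tested, 6.94% separated upward and 7.61% downward.

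**Figure D3:**
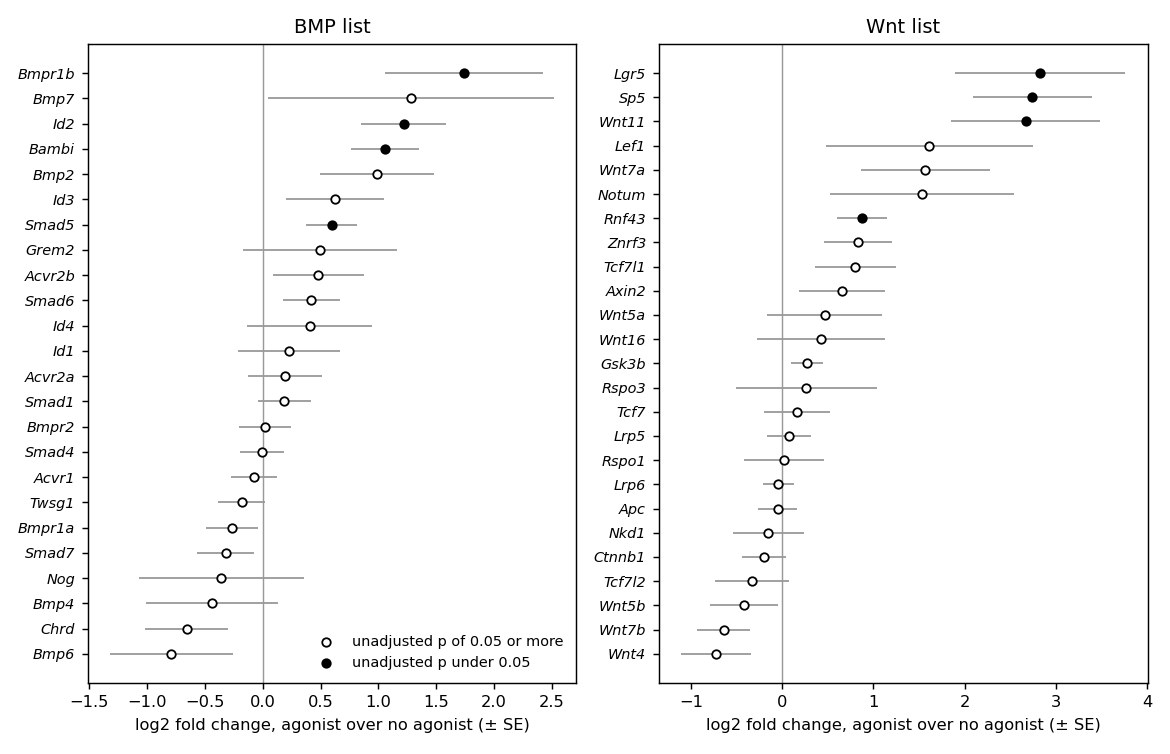
Log2 fold change (x axis, agonist over no agonist, ± SE) of the 24 tested genes of the BMP list and the 25 of the Wnt list (y axis), each sorted by its value. Filled points have an unadjusted p under 0.05 and all 4 in each list lie to the right of 0, while Wnt4 is the lowest of the Wnt list.

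The transcription factors and the cyclin lay lower on average with agonist, with overlapping groups and no call. Cebpb (chromosome 2, 167688915 to 167690418), a factor required for stromal differentiation, measured 37.0, 61.3 and 70.4 CPM without agonist and 46.9, 32.5 and 18.9 CPM with it. The groups overlapped through agonist library 1 and no-agonist library 1, and the log2 fold change was -0.78 ± 0.37 (95% interval -1.64 to 0.082, edgeR adjusted p = 0.574). Cebpb overlaps Tmem189 on the opposite strand in GENCODE M21, as Wnt6 and Foxo1 overlap antisense genes, and with no strand setting given the reads of such pairs cannot be told apart. In the C/EBP family 3 of 6 tested genes were higher and 3 lower, with 0 at an unadjusted p under 0.05. Cebpa measured 26.04, 7.66 and 10.5 CPM without agonist and 22.1, 21.1 and 22.7 CPM with it. Foxo1 (chromosome 3, 52268336 to 52353221), a factor of stromal differentiation and of the epithelium at implantation, measured 104, 111 and 138 CPM without agonist and 110.5, 89.1 and 102 CPM with it, which overlap (log2 fold change -0.23, 95% interval -0.68 to 0.23, edgeR adjusted p = 0.784). That interval leaves out changes of 2-fold or more in either direction. Of 19 tested genes in the list of FoxO factors and targets 12 were higher and 7 lower, with 0 at an unadjusted p under 0.05. That division followed the scaling, at 17 and 2 with library totals, and was 9 and 10 without the libraries with a high 18S share.

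Ccnd3 (chromosome 17, 47505051 to 47599691), the D-type cyclin linked to polyploid decidual cells, measured 113, 130.2 and 118 CPM without agonist and 103, 114.5 and 76.02 CPM with it. Agonist library 2 lay above no-agonist library 1, and the log2 fold change was -0.30 (95% interval -0.78 to 0.19, edgeR adjusted p = 0.734). Its end overlaps Bysl, transcribed from the other strand. Its partners Cdk4 and Cdk6 had log2 fold changes of 0.35 ± 0.29 and 0.38 ± 0.34. The cyclin-dependent kinase inhibitor Cdkn2c (25.0 ± 9.55 with agonist against 14.2 ± 1.20 CPM) and the pocket protein Rbl2 (53.5 ± 11.4 against 36.6 ± 5.32 CPM) had separated groups. They were the 2 genes at an unadjusted p under 0.05 among the 23 tested cyclins, kinases, inhibitors and pocket and E2F proteins of G1. Over all genes tested 4.17% were higher at that p, and 6.94% separated upward. Of the 23 genes 19 were higher and 4 lower (median log2 fold change 0.38). Without agonist library 2 the division was 13 and 10 with a median of 0.041. That library stood above the other 5 for the cyclin Ccne1, at 45.4 CPM against 11.2 and 5.85 CPM in agonist libraries 1 and 3, and for the cell cycle factor E2f1, at 42.7 CPM against 10.9 and 7.39 CPM.

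**Figure D4:**
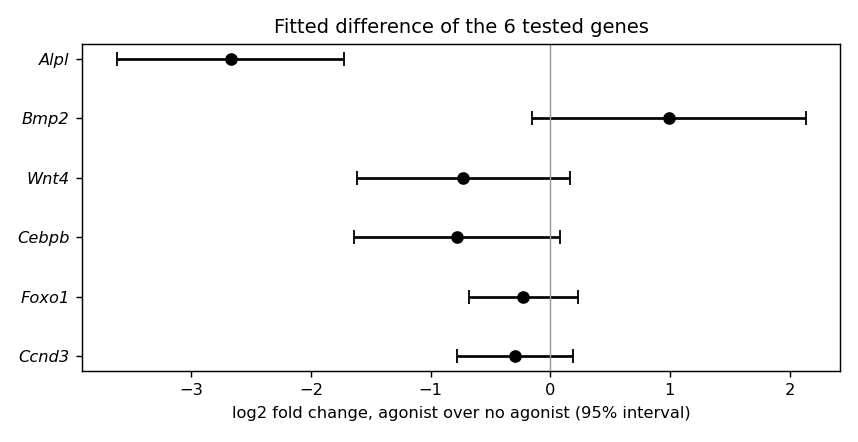
Log2 fold change (x axis, agonist over no agonist) with its 95% interval for the 6 tested genes (y axis) from the edgeR quasi-likelihood fit. The interval of Alpl, -3.62 to -1.72, lies below 0, and the other 5 intervals include 0.

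Among the 6 tested genes 1 was higher and 5 lower with agonist (median log2 fold change -0.51). Counting all genes with a read, 2 of 9 had all agonist libraries below the others, Alpl and Bmp8a, against 5.72% of 28089 genes. As the set was chosen with earlier results of these data known, that comparison is a description only. Bmp2 and Wnt6 were both high in agonist libraries 2 and 3 and not in agonist library 1. That library, one of the pair with a high 18S share, was also the highest of the agonist group for Alpl, Bmp8a and Cebpb, and the part of its RNA composition in these values was not tested. Some cell type markers followed the same division. The gland gene Cxcl15 measured 1.36, 82.2 and 69.8 CPM in agonist libraries 1, 2 and 3 and at most 1.04 CPM without agonist. Aldh1a1, of the same list, measured 8.66, 72.0 and 90.2 CPM with agonist. The summed gland markers did not follow it, at 360, 623 and 294 CPM with agonist and 261, 530 and 897 CPM without. Without agonist most of that sum came from Prom1, another gene of the list. Agonist library 1 also lay between agonist libraries 2 and 3 in the stromal, endothelial and neutrophil sums. The low sum of trophoblast and embryo markers did follow the division. It was 1.28, 5.09 and 5.00 CPM in agonist libraries 1, 2 and 3 and 0.830, 1.83 and 2.76 CPM without agonist. Summed smooth muscle markers ran the other way, at 14015, 3572 and 4290 CPM in agonist libraries 1, 2 and 3. The epithelial, leukocyte, and mesothelium and fat sums were also highest of the agonist group in library 1. For mesothelium and fat agonist library 2 stood apart, at 1.77 CPM. The part of cell types in the levels of Bmp2 and Wnt6 was not tested. Without agonist library 1 and no-agonist library 2 the Alpl log2 fold change was -2.83, and 3 genes of the set lay above and 5 below without overlap (Tdo2, with 1 read in each remaining agonist library, is counted among the 3). With 2 libraries against 2 such separation is common: 21.6% of all genes tested lay above and 20.2% below. These shares leave out genes below the filter on low counts, which the counts of the set take in. Per kilobase of exon the order of levels without agonist was Alpl at 108.7 ± 13.7 CPM, Cebpb at 37.4 ± 11.5, Wnt4 at 34.6 ± 15.1, Ccnd3 at 13.7 ± 1.03, Foxo1 at 13.6 ± 2.11, Bmp2 at 0.811 ± 0.400, Bmp8a at 0.464 ± 0.135 and Wnt6 at 0.188 ± 0.0583. With agonist Alpl, at 17.1 ± 8.14, was no longer first: Cebpb at 21.8 ± 9.31 and Wnt4 at 20.9 ± 5.95 were within the spread of it. In the list of 39 decidualization genes, the 26 tested genes other than these 10 were divided evenly, 13 higher and 13 lower, with 0 at an unadjusted p under 0.05 and a median log2 fold change of -0.0019. Among them Hand2, the stromal factor induced by progesterone, measured 31.1 ± 15.9 against 23.1 ± 10.9 CPM, with and without agonist. Nr5a2 measured 3.06 ± 1.69 against 1.03 ± 1.14 CPM. The smallest unadjusted p of these 26 was that of Des, also a smooth muscle marker, which was lower. Des measured 444 ± 254 against 1187 ± 930 CPM (log2 fold change -1.42 ± 0.61, edgeR unadjusted p = 0.0503).

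The genes closest to Alpl across the 6 libraries were taken from 11159 tested genes with a mean of at least 10 CPM, by Pearson correlation of log2 CPM. The likeness follows the difference between groups as well as the order within them. The 6 closest were Galnt6, which starts mucin-type O-glycans (r = 0.997), the Golgi protein Golm1 (r = 0.995), Mgst3, Capns1, S100a14 and Cbr2 (each r = 0.994). Golm1 measured 525, 596 and 463 CPM without agonist and 205, 161 and 76.4 CPM with it, and its libraries rank exactly as those of Alpl. Galnt6 measured 175, 178 and 157 CPM without agonist and 69.7, 55.8 and 34.1 CPM with it. The most opposite patterns were those of Wdr59 (r = -0.996), Msh3 (r = -0.995) and Jakmip1 (r = -0.993). In rank order of the libraries, 36 of the genes compared matched Alpl exactly, Galnt6, Golm1 and Capns1 among them, while Mgst3, S100a14 and Cbr2 had Spearman correlations of 0.886, 0.943 and 0.943.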

How the data were processed

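The deposited values are the authors' gene-level read counts, whole numbers with 1 row per gene symbol and 1 column per library, from total RNA of endometrium. Per the submitters' processing notes the genome build was mm10 (GRCm38) and reads were counted with HTSeq 0.6.1. On the aligner, the annotation and the strand setting of the counting, nothing is given in the sources used here. Per the labels' protocols, RNA had a RIN above 8.0 and was sequenced single-end on an Ion Proton.

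Genes were filtered with filterByExpr (minimum count 10), scaled by TMM and compared with edgeR 4.0.16's quasi-likelihood test in R 4.3.3 across all genes. A call needed a Benjamini-Hochberg adjusted p under 0.05. The common biological coefficient of variation was 0.375. DESeq2 1.42.0, edgeR's likelihood ratio test, limma-voom (limma 3.58.1), other scalings, other filters and leaving out libraries were alternatives. The SE is the log2 fold change divided by the square root of F. The script was tested on simulated data. Intervals at 95% on summed reads are exact binomial and cover counting error only.

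The 10 genes, the gene lists and the rules for naming genes (all 10, then up to 4 per pathway list by smallest p, up to 3 per marker list by level, close paralogs, and the genes closest to Alpl) were chosen with earlier results of these data known. Axin2, the receptors Bmpr1a and Bmpr2, the kinases Cdk4 and Cdk6, Ccne1, E2f1, Hand2, Nr5a2, Igfbp1, Ptprc, Cd68 and the embryonic genes were added for their roles after their values were seen. Exon lengths and positions are from GENCODE M21, and promoter windows from RefSeq (GRCm38.p6).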

Additional observations from a re-analysis of the deposited data

How the results depend on the processing

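The log2 fold change of Alpl was negative in all 15 alternatives. It was -2.68 with no filter on low counts (edgeR adjusted p = 0.0283), -2.68 with DESeq2 (adjusted p = 7.11e-08) and -2.67 with edgeR's likelihood ratio test (adjusted p = 4.03e-06), each past the threshold. In the other 12 it was not (largest adjusted p = 0.526, without no-agonist library 3), and limma-voom gave an adjusted p of 0.184. The other 5 tested genes kept their direction in the same 15 alternatives, with no call. Genes called higher and lower numbered 8 and 28 with no filter, 141 and 253 with DESeq2, and 104 and 164 with the likelihood ratio test. Leaving out 1 library at a time gave 0 higher and 0 to 1 lower (1 without no-agonist library 2). Genes of the set whose groups separated numbered 0 to 3 above and 2 to 5 below when 1 library was left out. They numbered 3 and 4 without agonist library 1 (15% and 14.1% of all genes tested). Without no-agonist library 1 they numbered 1 and 5 (13.1% and 12.7%). The counts of the set take in genes below the filter on low counts, which these shares leave out. Leaving out both libraries with a high 18S share, an alternative chosen after seeing the data, gave 0 genes called higher, 7 lower, and 3 and 5 separated genes of the set. The cause was not tested. The log2 ratio of mean CPM of Bmp8a moved from -3.12 to -3.94 without agonist library 1, and that of Wnt6 ranged from 1.88 without agonist library 3 to 3.03 without agonist library 1. The direction of each pathway list's median changed with library totals for the decidualization list of 39 (from -0.18 to 0.0022) and the C/EBP family (from -0.023 to 0.16, and to 0.025 with upper-quartile factors). With library totals in place of TMM factors the median over all genes tested went from 0.018 to 0.183 in log2 fold change, that of Alpl was -2.53, and genes at an unadjusted p under 0.05 were 1192 higher and 520 lower against 691 and 844. Bmp8a, Wnt6, Tdo2 and Prl8a2 are limited by depth. No paired analysis was made, because the 2 arms were separate mice and the labels give no pairing of libraries.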
